A study of Mus musculus with 7 samples.

Results

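The genes examined here encode the proteasome and its assembly and regulatory partners. They were taken from the deposited expression table as the protein-coding genes whose symbol begins with Psm, a letter from a to g and a number, leaving out the 3 inducible subunits of the immunoproteasome, Psmb8, Psmb9 and Psmb10. The rule found 48 genes among 21643 protein-coding genes and 57126 genes in all. They are the 14 constitutive subunits of the 20S core particle, 17 subunits of the 19S regulatory particle, 3 chaperones of the 19S base, 4 chaperones of the 20S core, 5 genes for activators and an inhibitor of the core, Psme2b (a retrocopy of the activator Psme2), the tissue-specific core subunits Psma8 and Psmb11, and 2 genes that match the name pattern without encoding a subunit, Psmc3ip and Psme3ip1. The rule reads symbols only and no measured value, but it was chosen with earlier results of these data known.

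Transcripts were measured by RNA-seq in 4T1, a triple-negative mammary cancer line of mouse. The cells carried an mCherry marker, grew as tumors in the mammary fat pad in BALB/c mice, and were sorted by fluorescence. In the PBS group (3 libraries) the fat pad had received 100 µL of phosphate-buffered saline, and in the Botox group (4 libraries) it had received 0.3 units of Botox, a botulinum neurotoxin that stops nerve endings from releasing transmitter, in the same volume of saline. Tumor cells followed after 7 days in both groups, and each library came from its own mouse. The comparison asks how denervation of the fat pad before tumor growth bears on the transcripts of the cancer cells. Both groups carried the same 4T1-mCherry cells.

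The 26S proteasome is the protease that breaks down most short-lived and damaged proteins once they have been tagged with ubiquitin. Its barrel-shaped 20S core is built of stacked alpha and beta rings, with the protease sites on the inside of the beta rings. The 19S regulatory particle caps the barrel, and its lid and base bind ubiquitin chains, remove them, unfold the substrate with a ring of ATPases and feed it into the core. When protease activity falls short, cells raise subunit transcripts together through the transcription factor Nfe2l1, which acts at antioxidant response elements in proteasome promoters.

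No proteasome gene passed the test for a difference between Botox and PBS. Of the 48 genes, 28 had at least 1 TPM in at least 3 libraries and were tested, and 0 of the 28 had an adjusted p below 0.05 in limma, with adjusted p from 0.424 to 0.995 on log2(TPM + 1). Across all 11260 tested genes that share was 0% as well. At an unadjusted p below 0.05 the test marked 0 of the 28, against 7.37% of all tested genes that were lower after Botox and 0.133% that were higher. As a group the 28 stood near the protein-coding background. Their median log2 fold change was -0.33, and that of the 7241 tested protein-coding genes was -0.45. The difference, 0.12, is called the relative log2 difference below. The fold change was negative in 26 of the 28 genes, and it lay above the protein-coding median in 19 of them. The table as a whole shows this shift, and beside it nuclear protein-coding genes held 10.4% to 11.7% of TPM in the PBS libraries and 3.71% to 11.2% in the Botox libraries.

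Which genes were tested depended on gene length. TPM in the table was computed with the genomic span, introns included, so subunits with long introns have low values. Psmd14, the lid enzyme that cuts ubiquitin chains off the substrate, spans 88683 bases and stood at 0.172 to 0.326 TPM after PBS, on a mean of 144 estimated reads. The 20 untested genes include 4 of the 7 alpha ring subunits, 3 of the 6 ATPases and 3 of the 4 core chaperones. In contrast, 7 of the 8 lid subunits were tested. 3 tested genes (Psmc2, Psmd12 and Psmb1) reached 1 TPM in all 3 PBS libraries and in fewer than 3 Botox libraries. For a view that does not depend on the span, reads were estimated from the table, and 44 of the 48 genes had at least 10 estimated reads in at least 3 libraries. In this second fit, over 16974 genes, 0 of 44 genes passed (lowest limma adjusted p = 0.914) and 0 had an unadjusted p below 0.05. The background there was 0% after adjustment and 3.45% before.

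The libraries held 8.56 to 13.6 M estimated reads, and 2 of them stood apart. In Botox 2 and Botox 4 only 2.98% and 2.41% of the detected genes had 1 to 4 reads, against 13.9% in Botox 3 and 20.2% to 23.5% in the other 4 libraries. The scaling factor of each library (the median over tested protein-coding genes of its ratio to the geometric mean of all libraries) was 1.22 to 1.43 after PBS. It was 1.06, 0.882, 1.18 and 0.435 in Botox 1 to 4. Values divided by these factors are called scaled TPM. Summed deposited (unscaled) TPM of 6 tumor cell markers (Krt8, Krt18, Krt19, Epcam, Cdh1, Vim) was 716 to 787 after PBS and 212 to 746 after Botox. Vim alone stood at 502 to 535 and 138 to 499, so these sums, scaled or not, mostly reflect 1 gene. Whether Vim came from tumor cells alone was not tested. Markers of macrophages, 12 genes led by Lyz2 and Apoe, summed to 860 to 1329 after PBS and 236 to 1100 after Botox, and were thus present in both groups of sorted cells. The 5 neutrophil markers summed to 5.10 to 6.96 and 0.843 to 5.61 TPM, and of the 7 lymphocyte markers, at 0.951 to 2.19 and 0.447 to 2.10 TPM, none was tested and Cd3d was at 0 in every library. After scaling, tumor cell markers summed to 552 to 607 after PBS and 445 to 648 after Botox, macrophage markers to 704 to 1035 and 223 to 1248, and neutrophil markers to 3.57 to 5.47 and 0.907 to 12.9, the highest in Botox 4. The part of these cells in the proteasome values was not tested. In bulk samples fewer cells of a type and less RNA per cell cannot be told apart.

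Per length of annotated exons, proteasome genes covered a wide range. Levels were compared as estimated reads per kilobase of annotated exons and per M reads, over the union of a gene's exons in the mouse GENCODE M21 annotation. All estimated reads of a gene were divided by its exon bases, and whether they lie in exons or introns is not known. The ranks below hold for this measure only and can change with the annotated exon length. After PBS the lid subunit Psmd7, the partner of Psmd14 in its enzyme pair, stood at 34.4 ± 3.18 (SD, n = 3). By reads of the gene alone this was above every other subunit. Reads on intronless copies, described below, are left out of these levels. Such copies held 81.4% to 97.8% of the reads of Psmb5, 75.1% to 91.4% for Psma5 and 84.6% to 90.9% for Psma3. The rank of these subunits with copies added was not computed. The retrocopy Psme2b, which is no subunit, stood higher than Psmd7 at 124 ± 15.8 (SD, n = 3). The nuclear activator Psme3 followed Psmd7 with 32.1 ± 1.58 (SD, n = 3), within the spread of Psmd7. Then came Psmd11 at 11.5 ± 0.370 and the activator Psme1 at 11.2 ± 1.52 (SD, n = 3 each), which also do not differ beyond their spread. The ATPase Psmc4 was the lowest 19S subunit at 1.54 ± 0.0514, and the alpha ring subunit Psma2, at 1.82 ± 0.154, was the lowest of the 20S core, with the beta ring subunit Psmb2 at 1.85 ± 0.494 beside it (SD, n = 3 each). Psma8, the testis form of an alpha subunit, had no estimated read in 6 of the 7 libraries and 2.00 in Botox 3. Psmb11, the thymus form of a catalytic subunit, stood at 0.191 ± 0.0522 (SD, n = 3).

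Some proteasome genes have a near-identical copy elsewhere in the genome. A comparison of transcripts at 90% identity or more over at least 300 bases found 27 intronless copies of 15 of the 48 genes, and none for the other 33. For 4 genes the copies held most of the reads in every library. The share in copies was 94.8% to 100% for Psme2, 84.6% to 90.9% for Psma3, 81.4% to 97.8% for Psmb5 and 75.1% to 91.4% for Psma5. The sequences show how alike gene and copy are where the gene has an intron. Each pair below gives 60 coding bases around an exon junction of the gene, 5′ to 3′, and the same stretch of the copy. In the gene, capitals mark the last base of one exon and the first base of the next. In the copy, capitals mark a base that differs.
Psma3: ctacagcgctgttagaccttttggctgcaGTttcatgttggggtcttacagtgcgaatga
Gm13835: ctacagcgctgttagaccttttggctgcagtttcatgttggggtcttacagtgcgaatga
Psmb5: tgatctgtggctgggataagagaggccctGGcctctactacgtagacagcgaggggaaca
Gm3375: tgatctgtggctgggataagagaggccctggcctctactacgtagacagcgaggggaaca
Psma5: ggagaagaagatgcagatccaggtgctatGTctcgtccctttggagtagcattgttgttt
Psma5-ps: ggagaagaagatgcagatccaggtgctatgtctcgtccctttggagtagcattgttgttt
Psme2: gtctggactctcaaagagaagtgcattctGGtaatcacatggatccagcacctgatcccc
Psme2b: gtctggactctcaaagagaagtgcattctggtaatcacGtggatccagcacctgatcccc

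The windows come from GENCODE M21 on build GRCm38. For each pair the junction nearest the middle of the coding sequence was taken, among junctions with at most 3 mismatches. The Psma3 window joins exon 5 (chr12:70984716-70984745) to exon 6 (chr12:70986863-70986892) on the plus strand, and Gm13835 carries it unbroken at chr6:31142313-31142372 on the minus strand. The Psmb5 window joins exons 2 and 3 (chr14:54616515-54616544 and chr14:54614452-54614481, minus strand), and Gm3375 has it at chr7:3181569-3181628. The Psma5 window joins exons 5 and 6 (chr3:108267871-108267900 and chr3:108268033-108268062, plus strand), and Psma5-ps has it at chr10:85313938-85313997. The Psme2 window joins exons 6 and 7 (chr14:55589301-55589330 and chr14:55588483-55588512, minus strand), and Psme2b has it at chr11:48945729-48945788 on the minus strand with 1 mismatch. Over all coding junctions compared in windows of this length, 8 of 9 junctions of Psma3, 2 of 2 of Psmb5, 4 of 7 of Psma5 and 7 of 10 of Psme2 were without mismatch in the copy. The remaining junction of Psma3 had 35 mismatches in 60 bases, so Gm13835 does not match the gene there. The remaining junctions of Psma5 and Psme2 had at most 2. Each of these copies has 1 exon. How the authors' counting treated reads that fit both places is not given in the sources used here, so the split between gene and copy is uncertain, and whether reads of the genes were counted on the copies was not tested.

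Reads of gene and copy were set side by side. Psmb5, whose product carries the chymotrypsin-like protease site, had 83.6, 107 and 92.7 estimated reads in PBS 1 to 3 and 58.9, 143, 84.4 and 6.22 in Botox 1 to 4. Its copy Gm3375 had 385, 634 and 720 reads after PBS and 477, 630, 660 and 283 after Botox. Botox 4 is thus the lowest library for both, but far lower for the gene than for the copy. Psma3, an alpha ring subunit, had 98.0, 115 and 115 reads after PBS, and Gm13835, identical to it over the aligned bases, had 662, 908 and 1020. For Psme2, a subunit of the interferon-inducible activator ring, the gene held 10, 10 and 20 reads after PBS and the copy 873, 1141 and 1605. Smaller shares lay in copies of Psmb3 (26.5% to 56.6%), Psma4 (28.6% to 53.3%) and Psmd2 (18.5% to 38.5%). In the remaining 8 genes with copies the share was at most 9.09%.

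**Figure D1:**
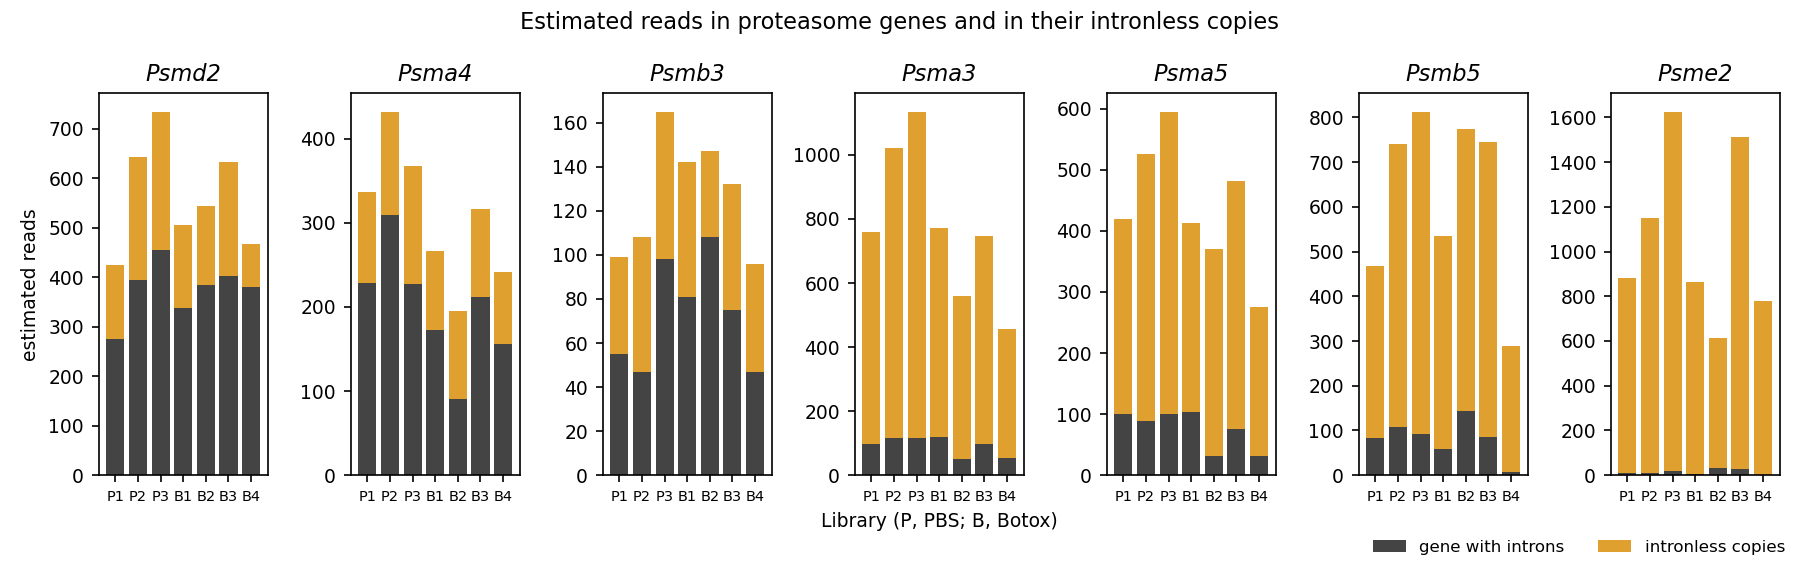
Estimated reads (vertical axis) in each of the 7 libraries (horizontal axis; P, PBS; B, Botox) for 7 proteasome genes, with reads of the gene in dark grey and reads of its intronless copies stacked in orange. The copies hold 18.5% to 38.5% of the reads of Psmd2, at the left, and 94.8% to 100% of those of Psme2, at the right.

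Of the catalytic beta subunits, Psmb5 and Psmb6 were tested on the deposited scale and did not pass. Psmb5 (chr14:54851576-54855480 on mm39) stood at 3.06, 2.89 and 2.26 scaled TPM in PBS 1 to 3 and at 2.01, 5.03, 3.04 and 0.356 in Botox 1 to 4. Botox 2 was the highest library and Botox 4 the lowest, so the PBS values lie inside the Botox range. The log2 fold change on the deposited scale was -0.56 ± 0.48 (SE; limma adjusted p = 0.452), which is -0.12 relative to protein-coding genes. On estimated reads the relative value of Psmb5 was -0.47. With the reads of its copies added it was 0.28, on a log2 fold change of 0.19 ± 0.22 (SE), so the sign changed with the copies. Psmb6 (chr11:70416193-70418685), which carries the caspase-like site, was at 4.47, 4.81 and 4.20 scaled TPM after PBS and 3.37, 5.88, 5.69 and 2.07 after Botox. Here too Botox 4 was lowest and Botox 2 highest, and the log2 fold change was -0.61 ± 0.45 (SE; limma adjusted p = 0.426). Psmb7 (chr2:38478048-38534100), which carries the trypsin-like site, spans 56052 bases and was tested only on estimated reads (limma adjusted p = 0.914). It was at 0.341, 0.373 and 0.379 scaled TPM after PBS and 0.375, 0.208, 0.316 and 0.203 after Botox, with Botox 2 and 4 below the rest and Botox 1 among the PBS values.

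On the deposited scale the 3 tested structural subunits of the beta rings had relative log2 differences of 0.02 for Psmb1, 0.24 for Psmb4 and 0.48 for Psmb3. Psmb1 lay below the background on scaled values (-0.17) and on estimated reads (-0.43), where Psmb3 and Psmb4 stayed above it. Without Botox 2 and Botox 4 these values of Psmb1 were 0.11 and 0.21. Psmb3 (chr11:97594225-97604327 on the authors' build, mm39) had the highest fold change of the tested core subunits. It stood at 0.780, 0.488 and 0.924 scaled TPM after PBS and 1.07, 1.46, 1.04 and 1.04 after Botox, so that every Botox library was above every PBS library. Its deposited log2 fold change was 0.04 ± 0.27 (SE; limma adjusted p = 0.922), 0.48 above the protein-coding median. Psmb1 was at 1.24, 1.06 and 1.22 scaled TPM after PBS and 1.14, 0.897, 1.55 and 0.281 after Botox, with a deposited log2 fold change at -0.43 ± 0.32 (SE; limma adjusted p = 0.429). Botox 4 was again the lowest library. Psmb2 was listed at 0 in Botox 2 and had 8 reads or more in each of the other libraries.

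In the alpha rings, which gate the entrance to the core, Psma4 had the lowest and Psma1 the highest fold change of the tested subunits. Psma4 (chr9:54858074-54865315 on mm39) was at 4.51, 4.49 and 2.98 scaled TPM after PBS and 3.18, 1.72, 4.11 and 4.82 after Botox. Its deposited log2 fold change was -0.71 ± 0.36 (SE; limma adjusted p = 0.424), a relative value of -0.26. Psma1 was at 1.05, 1.06 and 0.603 after PBS and 0.705, 1.68, 0.464 and 1.32 after Botox, and the groups overlap fully. Psma2, not tested on the deposited scale, was the only gene of the 44 with all Botox libraries below all PBS libraries after scaling. It stood at 0.124, 0.152 and 0.147 scaled TPM after PBS and 0.113, 0.0898, 0.0553 and 0.0770 after Botox, on 53.0 to 94.0 and 21.0 to 52.0 estimated reads. Psma6 had 35, 30 and 36 reads after PBS, 37.0 in Botox 1 and 18.0 in Botox 3, and was listed at 0 in Botox 2 and Botox 4.

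A few genes were listed at 0 in both of these libraries. Of the 42 proteasome genes with at least 10 estimated reads in each PBS library, 2 (Psma6 and the core chaperone Psmg4) were at 0 in both Botox 2 and Botox 4. Among all protein-coding genes of that depth the share was 1.21%, or 143 of 11838. With 2 genes the count is too small to set the proteasome apart from them.

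The tested subunits of the regulatory particle had a median relative log2 difference of 0.18. With no filter on low values it was -0.08 over all 17 subunits, against a protein-coding median taken over more genes. These values thus have different backgrounds, and the relative value of Psmc2 alone was 0.26 against the first and -0.02 against the second. On estimated reads the median of the 17 subunits was 0.25. Psmd2 (chr16:20470402-20482165 on mm39), the large scaffold of the base to which ubiquitin shuttle proteins dock, was at 3.34, 3.53 and 3.67 scaled TPM after PBS and 3.82, 4.47, 4.80 and 7.25 after Botox, with no overlap. On the deposited scale its log2 fold change was -0.13 ± 0.30 (SE; limma adjusted p = 0.756), 0.32 above the protein-coding median, and on scaled values it was 0.40 ± 0.20 (SE; limma adjusted p = 0.932). These values leave out its copies, which held 18.5% to 38.5% of the reads, with the lowest share in Botox 4. On estimated reads the log2 fold change of Psmd2 was 0.49 ± 0.22 (SE), and 0.33 ± 0.18 (SE) with copies added. Whether its groups stay apart with copies added was not computed. Psmd4 (chr3:94940005-94949926), the ubiquitin receptor of the base, was at 1.68, 1.91 and 2.79 scaled TPM after PBS and 2.87, 3.50, 2.19 and 4.67 after Botox. Only Botox 3 fell among the PBS values, and the deposited log2 fold change was -0.03 ± 0.28 (SE; limma adjusted p = 0.946). Both genes kept a positive relative value in every alternative run.

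Among the ATPases, which unfold the substrate, Psmc2 and Psmc6 marked the ends of the tested range. Psmc2 was at 0.880, 0.916 and 0.813 scaled TPM after PBS and 1.11, 0.910, 1.12 and 0.798 after Botox, a relative log2 difference of 0.26. Psmc6 was at 1.25, 1.22 and 0.946 after PBS and 1.07, 1.55, 0.987 and 0.539 after Botox, a relative log2 difference of 0.07. The groups overlap in both genes. The third tested ATPase, Psmc5, lay between them at 0.14.

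The lid held the other gene of the 19S particle with separate groups. Psmd13 (chr7:140461881-140478557 on mm39), a structural subunit of the lid, was at 0.839, 0.851 and 0.802 scaled TPM after PBS and 0.958, 1.83, 1.06 and 1.40 after Botox. Its deposited log2 fold change was 0.00232 ± 0.25 (SE; limma adjusted p = 0.995), 0.45 above the protein-coding median. Psmd7 (chr8:108307013-108315097) lay on the other side. It was at 12.7, 13.2 and 11.1 scaled TPM after PBS and 11.4, 8.52, 11.9 and 8.89 after Botox, with Botox 2 and 4 below all PBS libraries and Botox 1 and 3 among them. The deposited log2 fold change of Psmd7 was -0.85 ± 0.43 (SE; limma adjusted p = 0.424), a relative value of -0.40. Its partner Psmd14, the deubiquitinase, was not tested on the deposited scale and stood at 0.229, 0.141 and 0.185 scaled TPM after PBS and 0.137, 0.171, 0.187 and 0.0454 after Botox, on 18.0 reads in Botox 4.

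**Figure D2:**
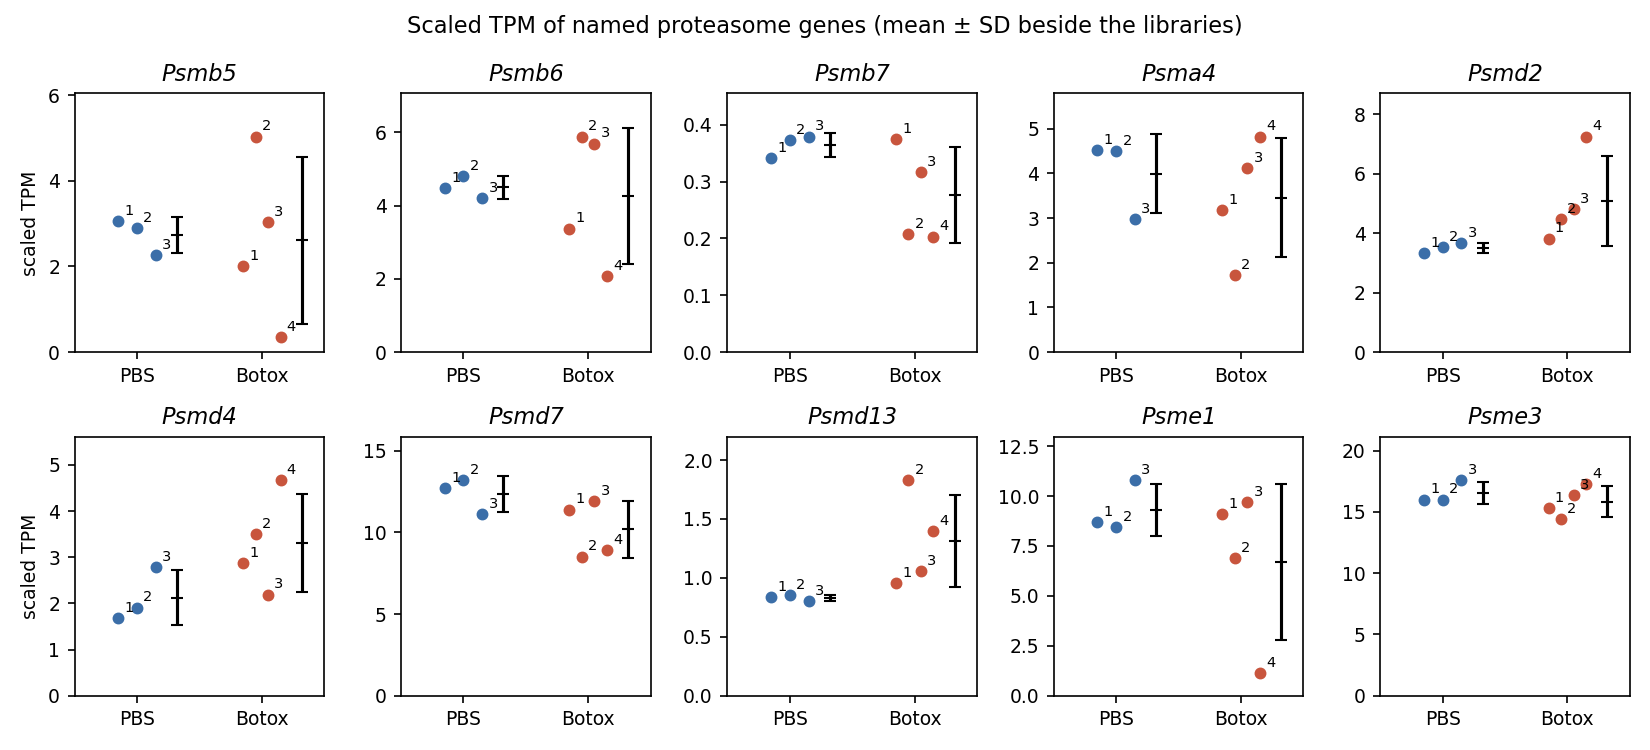
Scaled TPM (vertical axis, from 0) of 10 proteasome genes in the PBS (blue) and Botox (red) libraries, numbered by library, with the group mean and SD in black beside the points (n = 3 and 4). All 4 Botox libraries lie above the 3 PBS libraries for Psmd2 and Psmd13, and Botox 4 is the lowest point for Psmb5, Psmb6, Psmb7 and Psme1. Reads of intronless copies are not included.

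Counting groups without overlap gave few proteasome genes in either direction. On the deposited scale 3 of the 28 tested genes (Psmd7, Psmd12 and Psme3) had all Botox libraries below all PBS libraries, which held for 22.4% of all tested genes and 28.8% of tested protein-coding genes. After scaling, 0 of 28 were below (background 3.45% of all and 3.60% of protein-coding genes), and 3 of 28, the genes Psmd2, Psmd13 and Psmb3, were above (background 4.25% and 4.72%). Among the 44 genes with enough reads, 1 was below, against 3.46% of protein-coding genes of that depth, and 3 were above, against 3.86%. These counts are small, and they use each gene's own reads without those of its intronless copies. None of the genes passed the adjusted test on either scale. On scaled values 0 of 28 passed (lowest limma adjusted p = 0.932), against 0.00888% of all tested genes, and 0 of 28 had an unadjusted p below 0.05, against 4.45%.

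Core and regulatory particle were then set side by side. On the deposited scale the median relative log2 difference was 0.06 over the 8 tested core subunits and 0.18 over the 12 tested regulatory subunits, and 5 of 8 and 10 of 12 lay above the protein-coding median. On scaled values the medians were -0.09 and 0.18. With estimated reads, where all 14 and 17 subunits could be used, they were -0.28 and 0.25, and 3 of 14 core subunits against 10 of 17 regulatory subunits lay above the protein-coding median. The core-minus-regulatory differences in these 3 views, from unrounded medians, were -0.11, -0.26 and -0.53. The first 2 were small and moved with the libraries and genes used. Without Botox 4 they were 0.01 and 0.02, and without both Botox 2 and Botox 4 they were -0.17 and -0.13. The first was -0.02 without PBS 1, and with no filter on low values it was -0.00427, with both particles at -0.08. Adding the reads of the copies to their genes brought the core to -0.10 and left the regulatory particle at 0.25.

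Over all 31 subunits the gap was widest in 2 of the 4 Botox libraries. As deviation of log2(scaled TPM) from the mean of the PBS libraries, the median core subunit was at 0.18, 0.01 and -0.13 in PBS 1 to 3. In Botox 1 and 3 it was within that range, at 0.00469 and 0.10, and in Botox 2 and 4 it was at -0.51 and -0.74. The median regulatory subunit stayed between -0.12 and 0.08 in all 7 libraries. The core-minus-regulatory difference was 0.24, -0.03 and -0.15 after PBS and -0.05, -0.43, 0.02 and -0.62 after Botox. With copies added the differences in Botox 1 to 4 were -0.11, -0.20, 0.07 and -0.29, against -0.07 to 0.14 after PBS, so Botox 1 was also below the PBS range. On log2(TPM + 1) over the tested subunits alone, the difference was 0.46 in Botox 2 and -0.34 in Botox 4, so Botox 2 changes side with the choice of subunits and scale. Without Botox 2 and Botox 4 the medians from estimated reads were 0.08 for the core and 0.16 for the regulatory particle. These are the same 2 libraries that lack genes with few reads, and the part of that lack in the core's lower median was not tested.

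**Figure D3:**
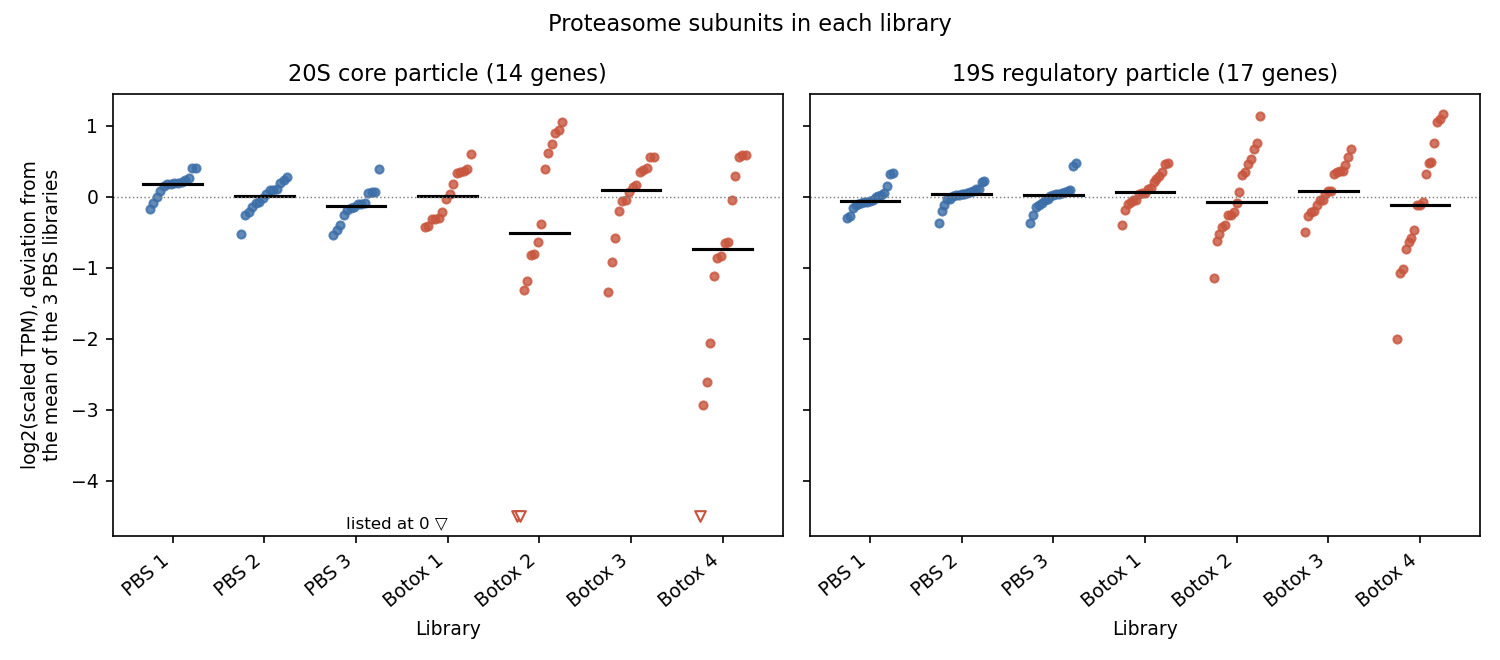
Deviation of log2(scaled TPM) from the mean of the 3 PBS libraries (vertical axis) for each of 14 core and 17 regulatory subunits in each library (horizontal axis), with the median as a black line and open triangles for genes listed at 0. The core medians of Botox 2 and Botox 4 lie at -0.51 and -0.74, and the regulatory medians lie between -0.12 and 0.08 in every library.

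Spread among subunits followed the same libraries. All 31 core and regulatory subunits lay within 2-fold of their PBS mean in each PBS library and in Botox 1, 30 did in Botox 3, 24 in Botox 2 and 20 in Botox 4. Protein-coding genes of like depth, 8921 genes with a PBS mean of 25 to 892 reads, were within 2-fold in 84.6% of cases in Botox 2 and in 69.3% in Botox 4, where the subunits reached 77.4% and 64.5%. Other genes of that depth scattered widely in the same 2 libraries. By total, the 48 genes took 0.129% to 0.133% of protein-coding reads after PBS and 0.130%, 0.123%, 0.158% and 0.131% in Botox 1 to 4. Botox 3 alone stood outside the PBS range upward and Botox 2 below it. This total includes the retrocopy Psme2b, with 873, 1141 and 1605 reads after PBS and 858, 583, 1481 and 778 after Botox. The shares without Psme2b were not computed, and the order of the libraries can differ there.

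**Figure D4:**
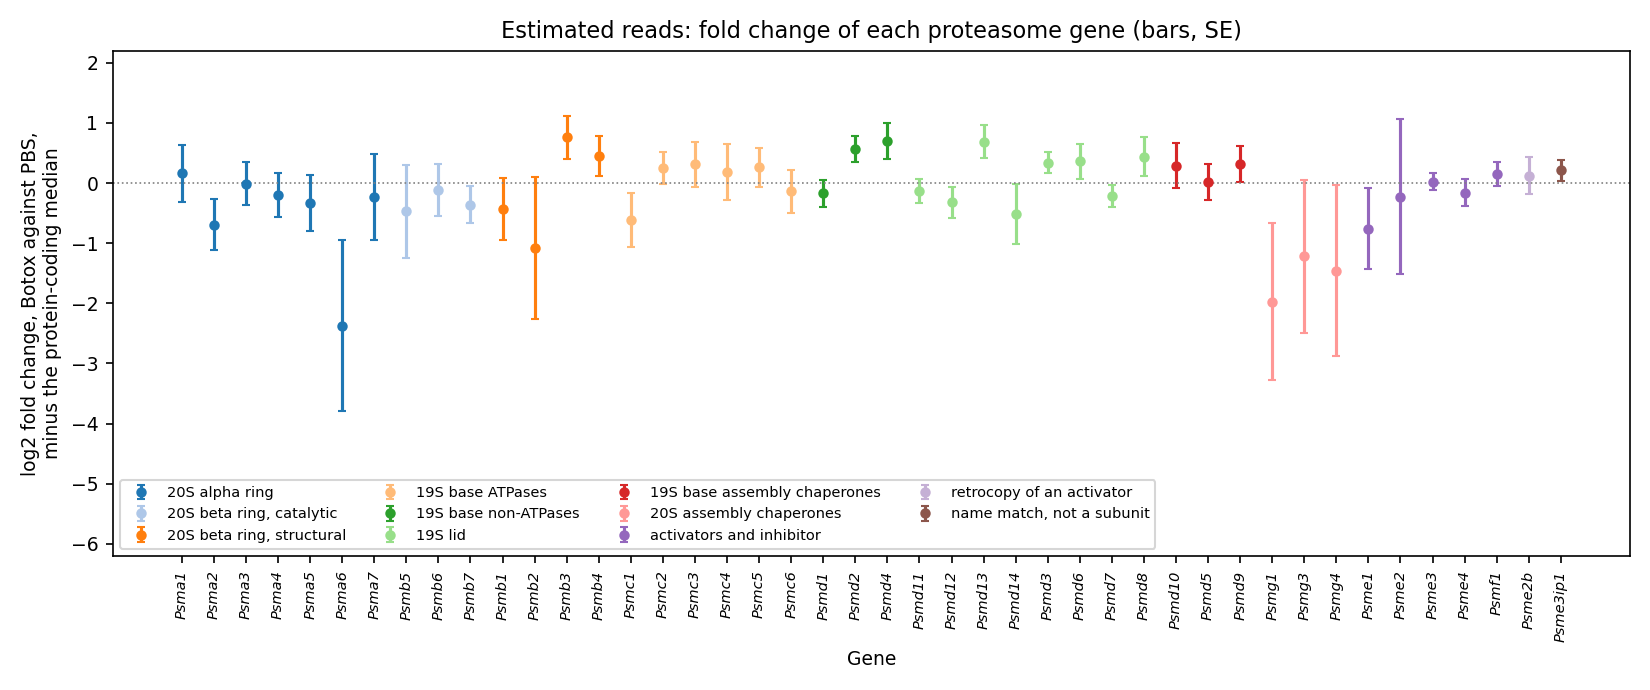
Log2 fold change of Botox against PBS from estimated reads, minus the protein-coding median (vertical axis), for the 44 proteasome genes with at least 10 reads in 3 libraries (horizontal axis, colored by role); bars are SE from limma. Values run from -2.37 for Psma6 to 0.76 for Psmb3, and the 5 genes below -1 (Psma6, Psmg1, Psmg3, Psmg4 and Psmb2) were each listed at 0 in Botox 2, in Botox 4 or in both.

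Chaperones build the 2 particles. Psmg3, which helps to form the alpha ring, was at 1.39, 1.47 and 1.79 scaled TPM after PBS and 2.46, 1.29 and 1.15 in Botox 1 to 3, and it was listed at 0 in Botox 4 (deposited log2 fold change -0.55 ± 0.39, SE; limma adjusted p = 0.424). Psmg2, another alpha ring chaperone, had 2, 4 and 3 reads after PBS and 6, 21, 8 and 42 after Botox, so every Botox library was above every PBS library, at a depth below the limit of 10 reads in 3 libraries used for the fit. Psmd10 and Psmd5 help to assemble the ATPase ring. Psmd10 was at 1.55, 1.31 and 1.44 scaled TPM after PBS and 0.914, 2.08, 1.68 and 2.32 after Botox, and Psmd5 was at 2.07, 1.81 and 1.58 and at 2.13, 1.92, 2.23 and 0.984. Their relative log2 differences on the deposited scale were 0.19 and 0.07, and the groups overlap in both.

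Activators showed the lowest tested value of the family. Psme1 (chr14:55815580-55818987 on mm39), which pairs with Psme2 in the ring that opens the core without ubiquitin, was at 8.68, 8.43 and 10.8 scaled TPM after PBS and 9.10, 6.91, 9.69 and 1.12 after Botox. Its deposited log2 fold change was -1.10 ± 0.64 (SE; limma adjusted p = 0.424), -0.65 relative to protein-coding genes. Botox 4 was far below the rest, Botox 2 was below all PBS libraries, and Botox 1 and 3 lay among them. On scaled values without Botox 2 and 4 the relative log2 differences of Psme1, Psme3 and Psmf1 ranged from -0.06 to 0.01. Psme3, which acts in the nucleus, was at 16.0, 16.0 and 17.6 scaled TPM after PBS and 15.3, 14.4, 16.4 and 17.3 after Botox, and the groups overlap. Psmf1, an inhibitor of the core, was at 1.18, 1.23 and 1.03 after PBS and 1.06, 1.40, 1.27 and 1.10 after Botox. Psme2b, the retrocopy, was at 149, 143 and 182 scaled TPM after PBS and 136, 95.3, 249 and 208 after Botox, and its short span of 837 bases makes its TPM high beside genes with introns. Psme3ip1, a partner of Psme3, was at 1.69, 1.52 and 1.55 after PBS and 1.64, 1.60, 2.07 and 1.66 after Botox. Psmc3ip, a meiotic recombination factor that the name pattern takes in, had at most 13.0 reads in any library.

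The 3 immunoproteasome genes, which interferon induces and which replace the catalytic subunits of the core, were compared beside the constitutive ones. Psmb8 was at 13.8, 12.2 and 19.2 scaled TPM after PBS and 11.8, 18.6, 19.5 and 16.8 after Botox. Psmb9 was at 3.05, 2.52 and 4.59 and at 2.73, 6.54, 4.95 and 5.48, and Psmb10 was at 2.74, 2.29 and 3.72 and at 3.29, 4.45, 4.09 and 0.165. None passed the test (lowest limma adjusted p = 0.477), and the groups overlap in all 3. The lowest library for Psmb10 was Botox 4, on 2.00 estimated reads.

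Other genes of the pathway were taken from 5 further lists, and 42 of their 43 entries were found in the table. Of the 34 tested, 0 passed in either direction in limma, and 2 (Nfe2l2 and Ubqln1) had an unadjusted p below 0.05, against 0% and 7.50% of all tested genes. Nfe2l1, the factor that raises proteasome transcripts, was at 47.6, 54.3 and 56.0 scaled TPM after PBS and 60.6, 42.5, 60.3 and 45.8 after Botox (deposited log2 fold change -0.66 ± 0.48, SE; limma adjusted p = 0.426). Nfe2l2, the regulator of antioxidant genes, was at 6.44, 6.52 and 6.29 after PBS and 4.89, 5.80, 4.56 and 5.14 after Botox, with no overlap and a deposited log2 fold change that stood at -0.83 ± 0.34 (SE; limma adjusted p = 0.424). Separate groups went both ways in the tested genes of these lists. After scaling, Ubqln2 and Uba1 also had all Botox libraries below all PBS libraries, and Mafg and Rps27a had all above. The background was 3.45% of all tested genes below and 4.25% above. Pomp, which matures the core, was at 0.955, 1.09 and 1.26 and at 1.11, 1.54, 0.790 and 1.29. Adrm1, a ubiquitin receptor of the 19S particle, was at 8.68, 9.44 and 9.80 and at 13.5, 7.50, 9.82 and 8.21. Sem1, a small lid subunit outside the Psm names, was at 0.287, 0.320 and 0.263 and at 0.287, 0.269, 0.289 and 0.199. Groups overlap in Nfe2l1, Pomp, Adrm1 and Sem1.

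In the other lists the gene of smallest p was, with its deposited log2 fold change, Akirin2 (-0.63 ± 0.31, SE), a factor for nuclear import of proteasomes, the ubiquitin shuttle Ubqln1 (-0.62 ± 0.28, SE), the deubiquitinase Yod1 (-0.85 ± 0.50, SE), and the ubiquitin-activating enzyme Uba1 (-0.63 ± 0.32, SE). Each had a limma adjusted p of 0.424. All 4 lie within 0.40 of the protein-coding median of -0.45. On scaled values the median relative log2 differences of these lists and the immunoproteasome were between -0.15 for the 26S partners without a Psm name and 0.15 for the immunoproteasome.

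Promoters of these genes were searched for the antioxidant response element, read as TGACNNNGC or TGAGNNNGC on either strand, in RefSeq promoters of 300 bases (250 before to 50 after the start) on GRCm38.p6. The table matched 40 of the 48 genes, with 44 promoters. The element was found in 18 of the 44 (40.9%) and in 13 of the 27 promoters of core and regulatory subunits (48.1%), against 27.8% of all 32851 promoters. The CCAAT box, searched as CCAAT on either strand, was in 34.1% of the 44 and 37.4% of all. Stretches of 60 bases before the start of a catalytic, an alpha ring and a lid subunit are shown because they carry the element in both particles, with it in capitals.
Psmb5: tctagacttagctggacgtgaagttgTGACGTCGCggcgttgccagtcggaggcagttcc
Psmb6: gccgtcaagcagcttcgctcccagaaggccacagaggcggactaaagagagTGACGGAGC
Psma4: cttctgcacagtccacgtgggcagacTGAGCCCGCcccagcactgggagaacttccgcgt
Psmd12: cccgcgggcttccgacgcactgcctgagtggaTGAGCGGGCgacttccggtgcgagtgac

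They lie at chr14:54618009-54618068 (minus strand), chr11:70525297-70525356, chr9:54950706-54950765 and chr11:107479468-107479527 (plus strand), and the element begins 47, 9, 127 and 28 bases before the start. These 4 genes had deposited relative log2 differences of -0.12, -0.16, -0.26 and 0.00365. A match of letters is a description and shows no binding.

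Genes whose scaled profile over the 7 libraries was most like that of the median tested proteasome gene were Kbtbd4 (Pearson r = 0.96), Ppif (0.95), Tmem199 (0.94), Srsf2 (0.93) and Grap (0.93), among 7213 genes compared. That median profile was nearly flat, from -0.05 in PBS 3 to 0.13 in Botox 3 as log2 deviation from a gene's mean. The correlations therefore rest on small differences. The libraries share depth and dropout, and r is given as a description.

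The authors' deposited table of KEGG sets lists the proteasome with 24 genes at a ratio of Botox to control of 0.730 with C read as control and B as Botox from the initials of the expression columns (p = 2.61e-05, false discovery rate 4.14e-05 in the authors' deposited table). In the authors' deposited table all 227 sets have a ratio below 1, their median ratio is 0.683, and 220 have a false discovery rate below 0.05. Ordered from the lowest ratio, the proteasome stands at 184 of 227 in the authors' deposited table, on the side of the sets with the smallest difference.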

How the data were processed

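RNA was sequenced from 7 sorted 4T1 samples (3 PBS, 4 Botox), grouped by sample titles. The mouse names in the labels match these groups. The labels' treatment field reads the same, untreated, for all 7, so it does not separate the groups. Per the labels' protocols, Trizol RNA was ribodepleted and sequenced as stranded paired-end libraries. The authors deposited TPM, and its values show a gene length equal to the genomic span and a constant of 0.001 added to each. The submitters' processing notes name build mm39, DESeq2, SAMtools and Bowtie2 2.2.5 without their roles. Which program counted reads is not given in the sources used here. For KEGG sets, the authors' deposited table holds a ratio, a p-value and a false discovery rate per set, copied without change.

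Genes with at least 1 TPM in 3 libraries (11260) were tested two-sided with limma 3.58.1 (R 4.3.3) on log2(TPM + 1), with an intensity trend and Benjamini-Hochberg adjustment at 0.05 over all of them. For genes with low values such fold changes are understated. The relative log2 difference is the log2 fold change minus the median over tested protein-coding genes. Scaling factors are medians of ratios. Estimated reads are the deposited TPM minus 0.001, times the span, over the step that 1 read makes. Under 20 reads, 88.4% to 90.0% of values were at most 0.1 from a whole number (20% by chance), so reads describe depth and enter limma as log values, with no count model, and cover counting error only in part, since without molecular identifiers a read is not an independent molecule. Copies were found with BLAST 2.17.0. The fit was tested on simulated data.

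Each library has its own mouse in the labels, and replicate numbers pair no mice: the deviations of same-numbered PBS and Botox libraries correlated at 0.10, -0.03 and -0.19. The proteasome genes, their roles and the pathway lists were chosen with earlier results of these data known. Values are printed for the catalytic subunits, the tested genes with the highest and lowest fold change in each role, genes whose groups do not overlap after scaling, and Psmd14, Psmd4 and Psmc3ip, and for Nfe2l1, Pomp, Adrm1, Sem1, the immunoproteasome and the gene of smallest p in each pathway list. Psme3, Psmd12, Psma3, Psme2, Psma6, Psmb2, Psmg4 and the levels per exon length were added after their values were seen. Alternatives were other scalings, pseudocounts and filters, array weights, left-out libraries and a replicate block. Estimated reads and added copies were chosen after seeing the data.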

Additional observations from a re-analysis of the deposited data

How the results depend on the processing

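Of the proteasome genes, 0 passed the adjusted limma test under any of the 22 alternatives run, with lowest adjusted p over these genes from 0.267 to 0.952. At an unadjusted p below 0.05 the count of these genes was at most 4, without Botox 3, where 16.4% of all genes tested passed. The median relative log2 difference of 0.12 moved to 0.05 with scaling factors, -0.08 with protein-coding genes rescaled, 0.08 with a pseudocount of 0.1, -0.07 with no filter, 0.19 with 1 TPM in every library, 0.05 with array weights, -0.12 with estimated reads and 0.02 with copies added, and leaving out 1 library gave 0.05 to 0.12. The protein-coding median was retaken over the genes of each run, so these values do not share 1 reference. The cause was not tested. The core-minus-regulatory difference of -0.11 moved to -0.44 with protein-coding genes rescaled, -0.40 with a pseudocount of 0.1 and -0.53 with estimated reads, and it shrank to -0.00427 with no filter, where the core and the regulatory particle were both at -0.08. Leaving out 1 library gave -0.28 to 0.01, the highest without Botox 4, and leaving out both Botox 2 and Botox 4 gave -0.17. Leaving out 1 library gave -0.02 to 0.12 for the core and 0.12 to 0.27 for the regulatory particle. With the replicate number as a block the medians were 0.10 over the tested genes, 0.12 for the core and 0.12 for the regulatory particle, with 0 calls. Of 19 named tested genes, 6 kept the sign of their relative value in every alternative that gave one, and 13 did not. The 6 were Psma4, Psmb3, Psmd13, Psmd2, Psmd4 and Psmd7. With no filter, where the protein-coding median was taken over more genes, 8 of the 19 changed sign. Psmc2, Psme3ip1 and Psmf1 changed in 1 alternative only. Dixon's outlier test flagged no value among 33 sets of 4 Botox values. With 4 values per set and 2 libraries that can be low together, this test has little power. It therefore does not show that the Botox libraries are alike. Botox 2 and Botox 4 did stand apart by their small share of genes with few reads. Depth limits the genes with few estimated reads, and Botox 2 and Botox 4 give no value for some of them.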
